A study of Rattus norvegicus with 9 samples.

Results

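The comparison described here sets vascular smooth muscle cells (VSMCs) that met the growth factor PDGF-BB after the inhibitor PTUPB against cells that met neither. The compared groups hold 6 of the 9 RNA-seq libraries, the 3 labelled PDGF-BB+PTUPB and the 3 labelled Control. The question is which transcripts still differed from untreated cells. Every group consisted of wild-type primary smooth muscle cells of the rat aorta at passages 4 to 8, which were grown with 20% serum, starved of serum for 12 h and held at 2% serum during treatment. Control cells received an equal volume of the solvent DMSO. The PDGF-BB+PTUPB cells had PTUPB at 0.5 µM for 2 h and then PDGF-BB for 24 h, at 10 ng/mL by the sample labels and 20 ng/mL by the series design. The remaining group, PDGF-BB alone for 24 h at the same dose, is quoted to place a gene, in comparisons that share libraries with this one. Its 3 libraries also entered the choice of genes to test and the fit that gives the spread behind every p-value. The animals' strain, age and sex are not given in the sources used here, nor do the labels state that the 3 libraries of each group are separate cultures, and every p-value therefore reflects the scatter among the sequenced libraries alone, which may be technical.

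PDGF-BB is released by platelets and injured vessel wall and acts through the receptor kinase encoded by Pdgfrb. In culture it drives smooth muscle cells to divide and migrate and lowers the genes of the contractile apparatus. PTUPB blocks the enzymes cyclooxygenase-2 and soluble epoxide hydrolase, which respectively make prostanoids and break down epoxy fatty acids from arachidonic acid. A cell that enters the cycle first transcribes the genes of DNA replication and later, from G2 phase into mitosis, those of the spindle, the kinetochore and the machinery that degrades mitotic proteins. In resting cells a repressor complex called DREAM holds many of the late genes down at a promoter element named the cell cycle homology region.

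The 6 libraries held between 13528312 and 16911050 counts, and 3 counts corresponded to 0.178 to 0.224 CPM, counts scaled to the library total. Of the smooth muscle markers examined, Des stayed under an FPKM (fragment count scaled to exonic length and library total) of 1 in all 9 libraries and 6 of 8 were abundant enough to test. Their summed FPKM was 1717 to 2342 in Control and 2182 to 2441 with PDGF-BB+PTUPB. Markers that adventitial fibroblasts also carry were present in every library, with a summed FPKM of 5234 to 6424 in Control and 5199 to 5841 with PDGF-BB+PTUPB. None of the 15 tested was called, a count near the background of 2.21% of all tested genes. Without Control replicate 2 and PDGF-BB replicate 3 there were 1 higher and 2 lower calls, against 650 and 695 of all 11197 tested genes. Of 15 endothelial markers 6 were at 0 in all 9 libraries (Cdh5, Kdr, Tie1, Plvap, Emcn, Cldn5), 12 stayed under an FPKM of 1 and 3 were tested, with a summed FPKM of 18.9 to 22.4 in Control and 24.1 to 28.1 with PDGF-BB+PTUPB. Of 19 leukocyte markers 9 were at 0 (among them Ptprc, Cd163 and Cd3e), 16 stayed under 1 and 3 were tested, with a sum of 17.6 to 26.4 in Control and 23.2 to 24.2 with PDGF-BB+PTUPB. Their part in the results was not tested. Control replicate 2 stood apart from the other Control libraries, with longer transcripts lower in it (Spearman's rho of -0.396 across genes between exonic length and its deviation from the other Control libraries). It lay at -22.5 on the second principal component of the 6 libraries, against 8.12 and 16.4 for the other Control libraries and -2.67 to 1.71 for the PDGF-BB+PTUPB libraries. The same rho was 0.358 for Control replicate 1 and 0.167 for Control replicate 3. PDGF-BB replicate 3 differed from its group in the same way as Control replicate 2 (rho of -0.384). Calls for all genes and for most lists are therefore given with and without these libraries. In bulk RNA, fewer cells of a type and less RNA per cell cannot be told apart.

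Most of the transcriptome lay close to Control. Of 11197 genes tested, the 95% interval of the change lay within 1.5-fold either way for 7845 genes (70.1%), and the median absolute log2 change was 0.126. With PDGF-BB alone the median absolute log2 change from the same Control libraries was 0.268. Between PDGF-BB+PTUPB and Control 247 genes (2.21% of those tested) were called by edgeR's quasi-likelihood test at an adjusted p under 0.05. Of these, 212 (1.89%) were higher and 35 (0.313%) lower with PDGF-BB+PTUPB, and 128 (1.14%) were at least 2-fold higher while 9 (0.0804%) were at least 2-fold lower. In the PDGF-BB comparison, which shares the Control libraries, 3714 genes (33.2%) were called, 1942 higher (17.3%) and 1772 lower (15.8%). Between PDGF-BB+PTUPB and PDGF-BB, which shares the PDGF-BB+PTUPB libraries, 2048 (18.3%) were called, 927 higher (8.28%) and 1121 lower (10%). In all 247 called genes the scaled counts of the 3 libraries of a group lay above those of the other group, which held for 2404 genes (21.5%) of all tested. Where separate groups are mentioned below for a called gene, this describes its values and adds no evidence beyond the call. A further 3113 genes were neither called nor held within 1.5-fold by their interval, so their level relative to Control is not settled by this fit.

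The called genes that rose were mostly of modest abundance, with a median FPKM of 5.42 over the 6 libraries against 10.8 for all tested genes, and 12 of them exceeded an FPKM of 100. The rises were also larger than the falls, with a median absolute log2 change of 1.20 against 0.67; both sets were chosen by this same contrast. Without Control replicate 2 there were 193 higher and 147 lower calls, without Control replicate 3 there were 111 and 15, without PDGF-BB+PTUPB replicate 2 there were 91 and 3, and without PDGF-BB+PTUPB replicate 3 there were 90 and 3. Without PDGF-BB replicate 1, 2 or 3, libraries outside the contrast, there were 147 and 17, 163 and 22, and 271 and 66. With the 6 libraries alone there were 182 and 30. Leaving out Control replicate 2 and PDGF-BB replicate 3 together gave 650 higher and 695 lower calls of 11197 tested genes, among them all 247 calls of the full set. The count of small falls was thus the value that moved most with the libraries used, and 84 rises and 2 falls (Scin and LOC103689965) were called in every one of the 22 alternative analyses in which they could be tested.

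**Figure D1:**
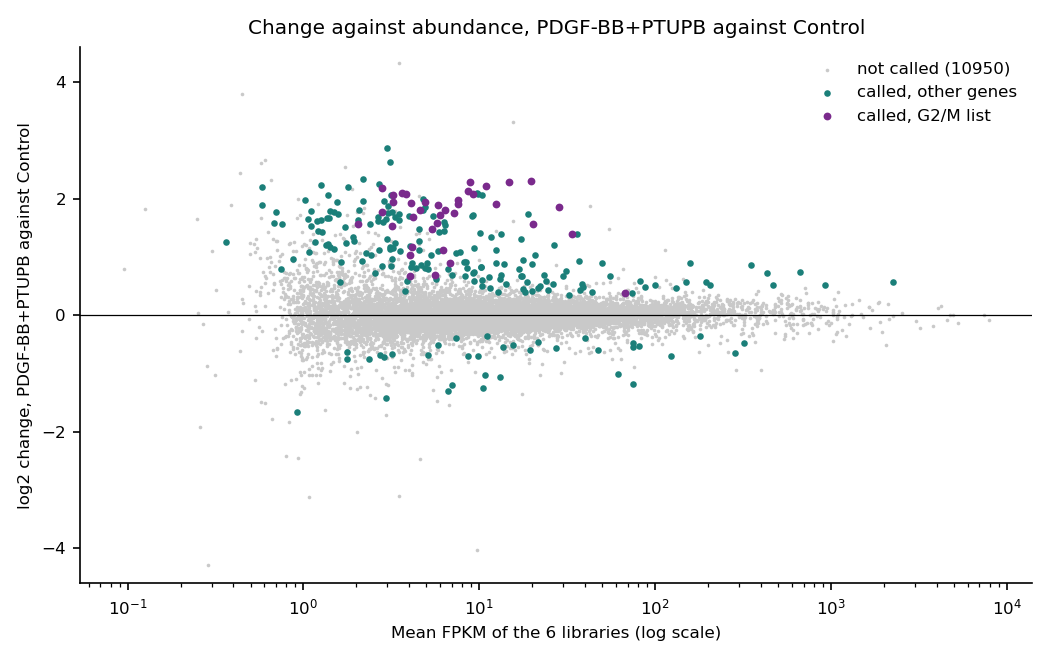
Log2 change between PDGF-BB+PTUPB and Control (vertical axis) against the mean FPKM of the 6 libraries on a log scale (horizontal axis), 1 point per tested gene. Called genes are coloured, with members of the G2/M list in purple; they form a band between log2 changes of 0.38 and 2.30 at FPKM of about 2 to 70, while the other points centre on 0.

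Genes of G2 phase and mitosis stayed above Control. Of a list of 52 such genes 51 were measured and tested, and 37 of the 51 were higher with PDGF-BB+PTUPB and none lower, against 1.89% of all tested genes higher. The median log2 change of the 51 was 1.68, against -0.01 for all tested genes, and every one of the 51 values was above 0, from 0.25 (Bub3) to 2.30 (Kif20a). In 49 of the 51 the libraries of the 2 groups did not overlap, against 21.5% of all tested genes. Their summed FPKM was 307, 214 and 253 in the Control libraries and 581, 682 and 729 with PDGF-BB+PTUPB, so the groups did not overlap. With PDGF-BB alone the sum was 1493, 1586 and 1201. Without Control replicate 2 the list had 34 higher calls and a median of 1.36, where 193 of all 11197 tested genes were higher. Without that library and PDGF-BB replicate 3 the list had 48 higher calls, against 650 of all tested genes. The list was written with earlier results of these data known, so its direction is not independent evidence.

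The kinase and cyclin that carry cells into mitosis were both among the rises. Ccnb1, cyclin B1, measured 6.90, 3.61 and 4.43 FPKM in the Control libraries and 16.9, 27.0 and 29.8 with PDGF-BB+PTUPB, a log2 change of 2.28 ± 0.26 (SE; edgeR adjusted p = 0.00181). Cdk1, the kinase that cyclin B1 activates, measured 20.2, 15.9 and 19.3 in Control and 41.5, 53.1 and 52.6 with PDGF-BB+PTUPB (1.39 ± 0.13, adjusted p = 0.000958). Neither gene's groups overlapped, and in both the lowest PDGF-BB+PTUPB library was replicate 1. Plk1, the polo-like kinase of centrosome and spindle, read 4.66, 2.59 and 3.24 against 12.5, 16.3 and 16.1 FPKM (2.08 ± 0.19), and Aurka, a spindle pole kinase, 1.92, 1.40 and 1.76 against 6.25, 7.47 and 5.89 (1.93 ± 0.16). All 4 genes remained below their PDGF-BB level, where Ccnb1 reached 59.5, 64.3 and 52.4 FPKM and Cdk1 94.2, 108 and 98.9, and all 4 were called in each of the 22 alternative analyses.

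Cdc20, which activates the anaphase-promoting complex, measured 3.74, 2.62 and 3.19 FPKM in Control and 11.2, 15.3 and 16.0 with PDGF-BB+PTUPB (log2 change 2.13 ± 0.16, 95% interval 1.77 to 2.50, adjusted p = 0.000418). Pttg1, the securin that this complex destroys at anaphase, measured 4.41, 2.49 and 4.52 in Control and 12.7, 17.6 and 23.4 (2.21 ± 0.25, adjusted p = 0.0019). Ube2t, a ubiquitin-conjugating enzyme of the Fanconi anaemia repair pathway, had the largest rise among named genes above an FPKM of 2, from 0.94, 0.48 and 1.16 to 4.47, 6.80 and 4.81 FPKM (2.62 ± 0.34). The 3 genes were each separated between the groups and again lower than with PDGF-BB alone, where Cdc20 stood at 39.7, 38.9 and 37.8 FPKM.

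The promoters of Cdc20, Pttg1, Cdk1 and Ccnb1 are shown because all 4 rose and hold 1 or both of 2 elements tied to late cell cycle genes, and that of Id2 is shown as the largest fall of a transcription regulator. Each run gives the 150 bases before the RefSeq gene start (build GRCr8), 5′ to 3′ on the gene's strand, with capitals marking TTTGAA (the core of the cell cycle homology region) and CCAAT (the box bound by NF-Y), each searched on both strands, so that TTCAAA and ATTGG are the reverse forms.
Cdc20: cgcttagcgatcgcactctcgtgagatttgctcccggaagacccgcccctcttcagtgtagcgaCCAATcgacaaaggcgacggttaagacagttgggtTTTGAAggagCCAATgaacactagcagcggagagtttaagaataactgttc
Pttg1: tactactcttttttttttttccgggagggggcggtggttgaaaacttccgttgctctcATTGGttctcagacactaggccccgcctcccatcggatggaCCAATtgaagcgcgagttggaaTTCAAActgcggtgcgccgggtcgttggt
Cdk1: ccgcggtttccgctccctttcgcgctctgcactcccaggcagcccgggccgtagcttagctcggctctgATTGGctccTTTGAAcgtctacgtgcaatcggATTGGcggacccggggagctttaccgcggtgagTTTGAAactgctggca
Ccnb1: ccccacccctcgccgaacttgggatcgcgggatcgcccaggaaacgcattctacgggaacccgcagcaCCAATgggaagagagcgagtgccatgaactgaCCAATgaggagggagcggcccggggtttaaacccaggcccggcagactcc
Id2: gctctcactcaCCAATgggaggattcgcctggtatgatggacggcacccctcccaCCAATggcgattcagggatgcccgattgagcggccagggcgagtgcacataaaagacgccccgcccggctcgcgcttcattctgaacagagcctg
The windows are chr5:137255800-137255949 on the minus strand, chr10:28406327-28406476 on the minus strand, chr20:19265143-19265292 on the plus strand, chr2:33655226-33655375 on the minus strand and chr6:47470996-47471145 on the minus strand, in the order shown. Cdc20 has TTTGAA at bases -51 to -46 before the start with CCAAT at -41 to -37 and -86 to -82. Pttg1 has the reverse form at -29 to -24, and Cdk1 has TTTGAA at -16 to -11 and -72 to -67. Ccnb1 and Id2 hold CCAAT but not the letters TTTGAA in these 150 bases, from which nothing follows about any factor. Of the other called G2/M genes whose window was read, Kif20a and Plk1 also hold CCAAT without TTTGAA, Knstrn, Cenpa and Birc5 hold TTTGAA without CCAAT, and Aurka holds neither. The genes were matched to RefSeq by symbol, and their identifiers in the deposited table are ENSRNOG00000028415, ENSRNOG00000003802, ENSRNOG00000000632, ENSRNOG00000058539 and ENSRNOG00000007237.

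Over windows of 300 bases that span the gene start, 103 of the 128 genes at least 2-fold higher had a RefSeq promoter under their symbol. TTTGAA on either strand was found in 50.5% of these, against 11.2% of the 8411 tested genes with a promoter, 8.0% of the 25 matched called falls and 18.1% of all 27457 promoters. In the 45 matched members of the G2/M list the share was 73.3% and in the 35 of the S phase list 11.4%. CCAAT was found in 63.1% of the 2-fold rises, 38.4% of tested genes and 32.0% of the falls. An E2F site (TTTCCCGC, TTTCGCGC, TTTGCCGC or TTTGGCGC) was found in 6.8% of the 2-fold rises and 4.39% of tested genes, while the S phase list had it in 42.9%. These shares describe letters and are not measurements of binding; none of the motifs contains another, but windows of neighbouring genes can share sequence.

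**Figure D2:**
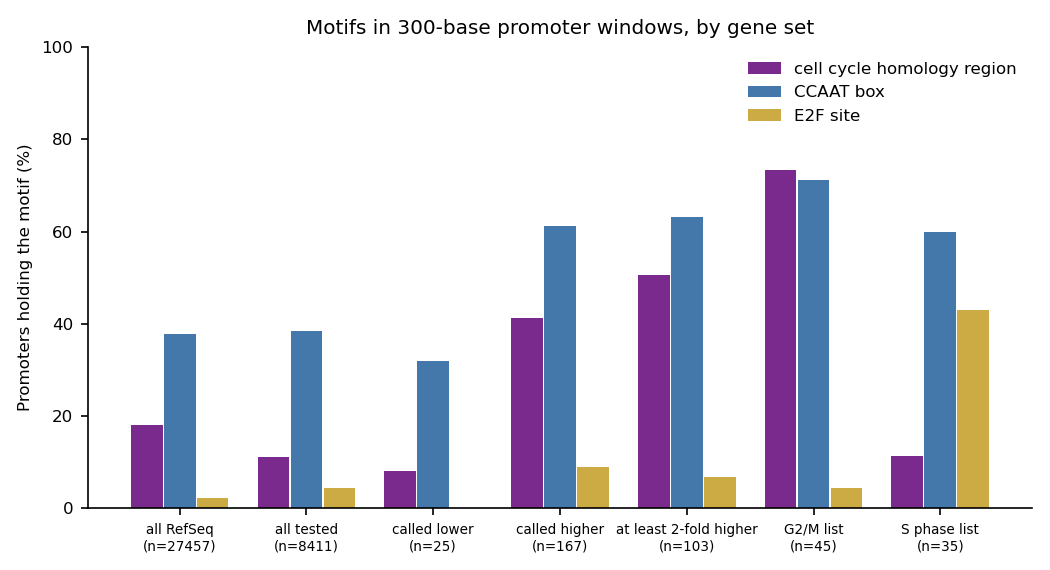
Share of 300-base RefSeq promoter windows (percent, bars from 0) that hold the cell cycle homology region, the CCAAT box or an E2F site on either strand, for 7 sets of genes with the number matched under each. The homology region reaches 73.3% in the G2/M list and 50.5% in the 2-fold rises, against 11.2% of all tested genes.

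The kinetochore, the protein structure that ties chromosomes to the spindle, contributed many of the rises. Of 18 tested centromere protein genes (Cenp) 8 were called higher, against 1.89% of all tested genes, and all 4 subunits of the NDC80 complex (Ndc80, Nuf2, Spc24, Spc25) and all 4 of the chromosomal passenger complex (Aurkb, Birc5, Cdca8, Incenp) were called higher; these families were picked after the values were seen. Knstrn, a kinetochore protein that keeps sister chromatids aligned, measured 3.53, 3.13 and 2.34 FPKM in Control and 12.7, 15.7 and 15.8 with PDGF-BB+PTUPB and had the smallest adjusted p of all genes (0.000386, log2 change 2.28 ± 0.16). Cenpa, the histone variant that marks centromeres, measured 1.57, 0.94 and 1.57 against 4.73, 5.45 and 7.48 (2.09 ± 0.22). Cenpt measured 1.05, 0.58 and 0.52 against 3.17, 4.05 and 3.76 (2.34 ± 0.24) and Cenpw, its partner, 1.26, 0.85 and 0.89 against 3.70, 4.81 and 5.31 (2.18 ± 0.20). In each of these genes the Control libraries lay below all PDGF-BB+PTUPB libraries, although 2 Control values of Cenpt were only 0.58 and 0.52 FPKM.

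Motors and spindle proteins were also among the rises. Of 29 kinesin genes tested 7 were higher (Kif20a, Kifc1, Kif2c, Kif4a, Kif22, Kif18b, Kif23) and none lower, against 1.89% of all tested genes higher. Kif20a, a kinesin of cytokinesis, measured 9.31, 4.04 and 6.27 FPKM in Control and 23.2, 30.9 and 44.0 with PDGF-BB+PTUPB (log2 change 2.30 ± 0.29, adjusted p = 0.00322). Nusap1, a microtubule bundling protein, measured 1.59, 1.28 and 1.48 against 5.40, 7.36 and 5.99 (2.09 ± 0.17), and Ckap2, a spindle protein, 14.5, 9.05 and 12.8 against 39.5, 45.3 and 49.7 (1.86 ± 0.19). Of 14 tubulins 4 were higher (background 1.89%), among them the abundant Tubb5 (362, 275 and 334 against 480.1, 591 and 567 FPKM, 0.73 ± 0.12) and Tuba1b (0.89 ± 0.17). Tubulin genes are closely related, so reads of these 2 may be shared with other copies. The calls of Tubb5 and Tuba1b were lost without Control replicate 3 and without replicate 2 or 3 of PDGF-BB+PTUPB (adjusted p up to 0.0831 and 0.142), and that of Tuba1b also without PDGF-BB replicate 1.

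The 14 list members that missed the threshold included genes with long transcripts, such as Cenpf (10069 exonic bases in the deposited table) and Mki67 (9880). Top2a, topoisomerase II alpha, measured 10.6, 4.59 and 7.28 FPKM in Control and 21.4, 26.5 and 22.6 with PDGF-BB+PTUPB (log2 change 1.62 ± 0.37, adjusted p = 0.0593). Mki67, the gene of the proliferation antigen Ki-67, measured 4.03, 1.68 and 3.10 against 7.05, 7.18 and 7.97 (1.31 ± 0.40, adjusted p = 0.167). Bub1 (1.42, adjusted p = 0.0612), Kif11 (1.40, 0.0967), Cenpe (1.83, 0.113) and Cenpf (1.60, 0.176) likewise missed it. In Top2a and Mki67 the groups did not overlap, and Control replicate 2 was the lowest Control library in both, while PDGF-BB replicate 3 read 16.8 and 5.85 FPKM against 42.4 and 15.3 in PDGF-BB replicate 1. With both libraries left out the adjusted p was 0.00101 for Top2a and 0.0018 for Mki67, and after removal of a trend on transcript length in each library it was 0.0139 and 0.0188. Over all tested genes the log2 change fell with exonic length (Spearman's rho of -0.30 across 11197 genes, -0.02 after removal of the length trend). That rho was -0.404 without Control replicate 2 and -0.404 without that library and PDGF-BB replicate 3. Without Control replicate 1 it was -0.176. The fits without Control replicate 2 thus held a stronger trend on length than the full fit. The part of transcript length in these results was not otherwise tested.

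**Figure D3:**
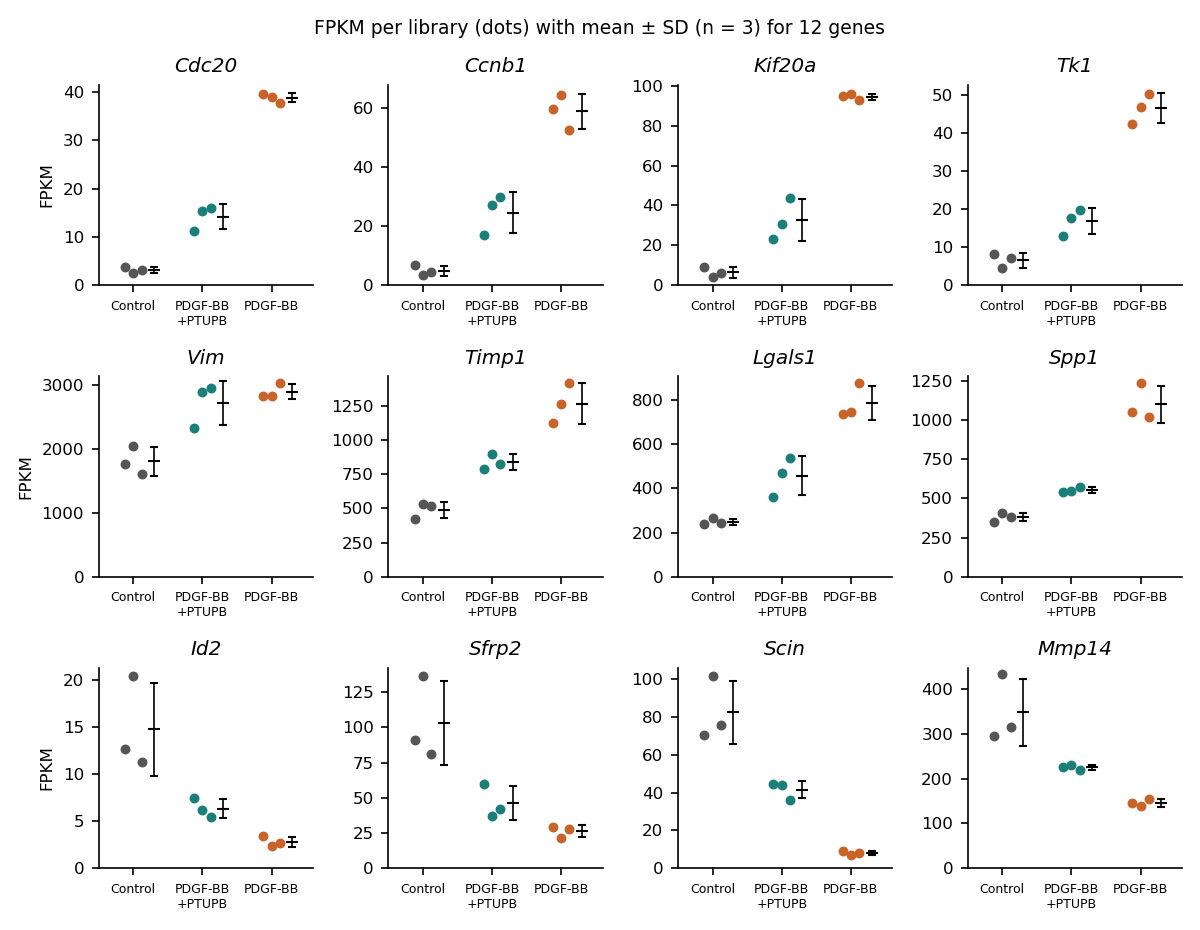
FPKM of 12 genes in every library (dots; linear axes from 0, a separate scale per gene), with the mean and SD of the 3 libraries of each group beside them. In Cdc20, Ccnb1, Kif20a and Tk1 the PDGF-BB+PTUPB libraries lie between Control and PDGF-BB, in Vim they overlap the PDGF-BB libraries, and in Id2, Sfrp2, Scin and Mmp14 they lie below Control.

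Fewer genes of S phase were called. Of 42 tested genes of DNA replication 9 were higher (Tk1, Mcm10, Rrm2, Gins1, Rfc5, Tyms, Rfc3, Rrm1, Prim1) and none lower, against 1.89% of all tested genes higher, and the median log2 change was 0.48. With PDGF-BB alone 36 were higher, against 17.3% of all tested genes, with a median of 1.25. Rrm2, a subunit of the reductase that makes deoxynucleotides, measured 19.4, 11.8 and 16.2 FPKM in Control and 34.0, 39.6 and 37.6 with PDGF-BB+PTUPB (log2 change 1.20 ± 0.17, adjusted p = 0.00486). Tyms, which makes thymidylate, measured 10.2, 7.92 and 10.8 against 15.6, 19.0 and 19.6 (0.88 ± 0.13, adjusted p = 0.00715), and Tk1, thymidine kinase, 8.21, 4.43 and 7.09 against 13, 17.7 and 19.9 (1.34 ± 0.22, adjusted p = 0.0124). In all 3 the groups were separate. The call of Tk1 was lost without PDGF-BB+PTUPB replicate 2 or replicate 3 (adjusted p = 0.061 and 0.0686). Outside the list, Dut, which removes dUTP, rose from 12.8, 14.5 and 13.3 to 25.1, 32.4 and 27.1 FPKM (1.04 ± 0.12, adjusted p = 0.00257); it was picked after its values were seen.

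Of the 9 called S phase genes 4 serve nucleotide supply (Tk1, Tyms, Rrm1, Rrm2) and 2 the clamp loader (Rfc3, Rfc5). None of the 6 MCM helicase subunits was called, with log2 changes from 0.18 (Mcm2) to 0.90 (Mcm5) and a median of 0.36, against 1.37 with PDGF-BB alone. Mcm3 measured 5.94, 3.19 and 4.63 FPKM in Control and 6.63, 7.68 and 6.66 with PDGF-BB+PTUPB (log2 change 0.59 ± 0.21, 95% interval 0.13 to 1.04, adjusted p = 0.238). Its groups did not overlap, and Control replicate 2 was its lowest library. Without Control replicate 2 the S phase list had 5 higher calls, against 193 of all 11197 tested genes. Without that library and PDGF-BB replicate 3 the list had 12, against 650 of all tested genes. Over the fits without 1 library the count ran from 2 to 10. Whether the change of the G2/M list exceeded that of the S phase list was not tested.

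Of 19 tested G1 cyclins, kinases and inhibitors Cdkn2c alone was called, a count near the background of 2.21% of all tested genes. In 14 of the 19 the interval lay within 1.5-fold of Control, a share near the 70.1% of all tested genes. Ccnd1, cyclin D1, measured 41.1, 31.3 and 36.5 FPKM in Control and 36.5, 41.2 and 40.3 with PDGF-BB+PTUPB (log2 change 0.09 ± 0.14, 95% interval -0.23 to 0.40, adjusted p = 0.847), so the groups overlapped. With PDGF-BB alone it stood at 54.5, 63.9 and 78.4 FPKM. Cdkn2c, the CDK inhibitor p18, measured 10.8, 11.6 and 10.4 in Control and 13.9, 14.9 and 15 (0.39 ± 0.09, adjusted p = 0.0489). This call sat just under the threshold and was made in 9 of 22 alternative analyses. Cdkn2c lost its call without Control replicate 1 or 3, PDGF-BB replicate 1 or 2 or PDGF-BB+PTUPB replicate 1, 2 or 3 (adjusted p up to 0.224).

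The 12 called rises above an FPKM of 100 were Vim, S100a4, Timp1, Spp1, Tubb5, Lgals1, Nqo1, Txnip, Tuba1b, Gsta1, Serpinb6a and Emp1, none of which is on the cell cycle lists. Vim, vimentin, the intermediate filament of mesenchymal cells, measured 1768, 2054 and 1609.7 FPKM in Control and 2334, 2893 and 2956 with PDGF-BB+PTUPB (log2 change 0.57 ± 0.12, adjusted p = 0.0375). With PDGF-BB alone it read 2829, 2832 and 3038, and between that group and PDGF-BB+PTUPB the log2 difference was -0.05 ± 0.12 (adjusted p = 0.827). Timp1, an inhibitor of matrix metalloproteinases, measured 422, 534 and 515 in Control and 788, 901 and 824 (0.75 ± 0.11, adjusted p = 0.00714). Lgals1, galectin 1, measured 236, 264 and 244 against 362, 468 and 538 (0.85 ± 0.13, adjusted p = 0.00852). No library of either group overlapped the other in these 3 genes. Timp1 and Lgals1 were called in all 22 alternative analyses and Vim in 13. Vim lost its call without Control replicate 1 or 3, PDGF-BB replicate 1 or 2 or PDGF-BB+PTUPB replicate 2 or 3 (adjusted p up to 0.188).

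Spp1, osteopontin, a secreted phosphoprotein of the synthetic smooth muscle state, measured 352, 407 and 382 FPKM in Control and 539, 549 and 574 with PDGF-BB+PTUPB (log2 change 0.52 ± 0.09, adjusted p = 0.0136). With PDGF-BB alone it reached 1049.9, 1235 and 1017 FPKM, so the PDGF-BB+PTUPB libraries lay between the other groups. S100a4, a calcium-binding protein of motile cells, measured 693, 805 and 766 against 1034, 1107 and 1163 (0.52 ± 0.10, adjusted p = 0.0206). Nqo1, a quinone reductase, was higher by a log2 change of 0.52 ± 0.11 (adjusted p = 0.0406), Txnip, which binds thioredoxin, by 0.57 ± 0.12 (adjusted p = 0.0317) and Serpine2, a serine protease inhibitor, by 0.80 ± 0.13 (adjusted p = 0.0125). All 5 calls were lost without Control replicate 3 and without replicate 2 or 3 of PDGF-BB+PTUPB, with an adjusted p of at most 0.186 over all alternatives. Nqo1 was called in 13 of 22 alternatives. It also lost its call without Control replicate 1 or 2, PDGF-BB replicate 1 or PDGF-BB+PTUPB replicate 1. Txnip also lost its call without Control replicate 1 or PDGF-BB replicate 1, and S100a4 without Control replicate 1. Of the 17 tested genes of the synthetic state, 3 were called higher (Vim, Spp1, S100a4; 1.89% of all tested genes) and Mmp14 lower (0.313% of all tested genes), with a median log2 change of 0.11. None of 18 collagens was called, against 2.21% of all tested genes. There was 1 lower call without Control replicate 2, and there were 3 without that library and PDGF-BB replicate 3. Of all 11197 tested genes 147 and 695 were lower in those fits. Col1a1 measured 3457, 2986 and 2941 FPKM in Control and 2814, 2955 and 3117 with PDGF-BB+PTUPB (95% interval of the log2 change -0.34 to 0.12).

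Contractile genes gave no call with all libraries. Of 24 tested members of the contractile list none passed, 9 values were above 0 and 15 below, the median log2 change was -0.18, and 13 intervals lay within 1.5-fold, against 70.1% of all tested genes. At a background of 2.21% called, 0 of 24 is not a result about the list. Acta2, smooth muscle actin, measured 779.9, 556 and 642 FPKM in Control and 568, 589 and 534 with PDGF-BB+PTUPB (log2 change -0.25 ± 0.13, 95% interval -0.53 to 0.02, adjusted p = 0.412). Myh11, the smooth muscle myosin heavy chain, measured 6.49, 5.19 and 6.28 against 4.4, 4.44 and 4.13 (-0.50 ± 0.13, 95% interval -0.79 to -0.20, adjusted p = 0.105). The groups overlapped in Acta2 through Control replicate 2 and did not in Myh11. Tagln, an actin-binding protein also called SM22, had values of 1416, 1063 and 1418 in Control and 1492, 1719.5 and 1578 with PDGF-BB+PTUPB (0.27 ± 0.13, adjusted p = 0.407), and for Cnn1, calponin, the log2 change was 0.08 ± 0.15 (95% interval -0.26 to 0.42). Klf4, a factor that represses contractile genes, measured 64.4, 58.9 and 53 against 49.8, 47.4 and 50.5 (-0.28 ± 0.09, adjusted p = 0.167).

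The count of contractile calls changed with the libraries used. The summed FPKM of the 24 genes was 5165, 3768 and 4812 in the Control libraries and 4543, 4777 and 4400 with PDGF-BB+PTUPB. Without Control replicate 2 the count of lower calls was 7 (Myh11, Mylk, Tpm1, Lmod1, Vcl, Mrvi1 and Flna) and the median -0.32. Without that library and PDGF-BB replicate 3 the count was 14. Of all 11197 tested genes 147 and 695 were lower in those fits, against 35 with all libraries. In the fit without Control replicate 2 the adjusted p was 0.0416 for Myh11, 0.0286 for Mylk, the myosin light chain kinase, and 0.018 for Flna, an actin crosslinker. Acta2 reached 0.0962 without Control replicate 2 and 0.0237 without both libraries. With the length trend removed the adjusted p was 0.143 for Myh11 and 0.796 for Flna. Whether contractile genes as a whole stood at or below Control is therefore not settled by these libraries.

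**Figure D4:**
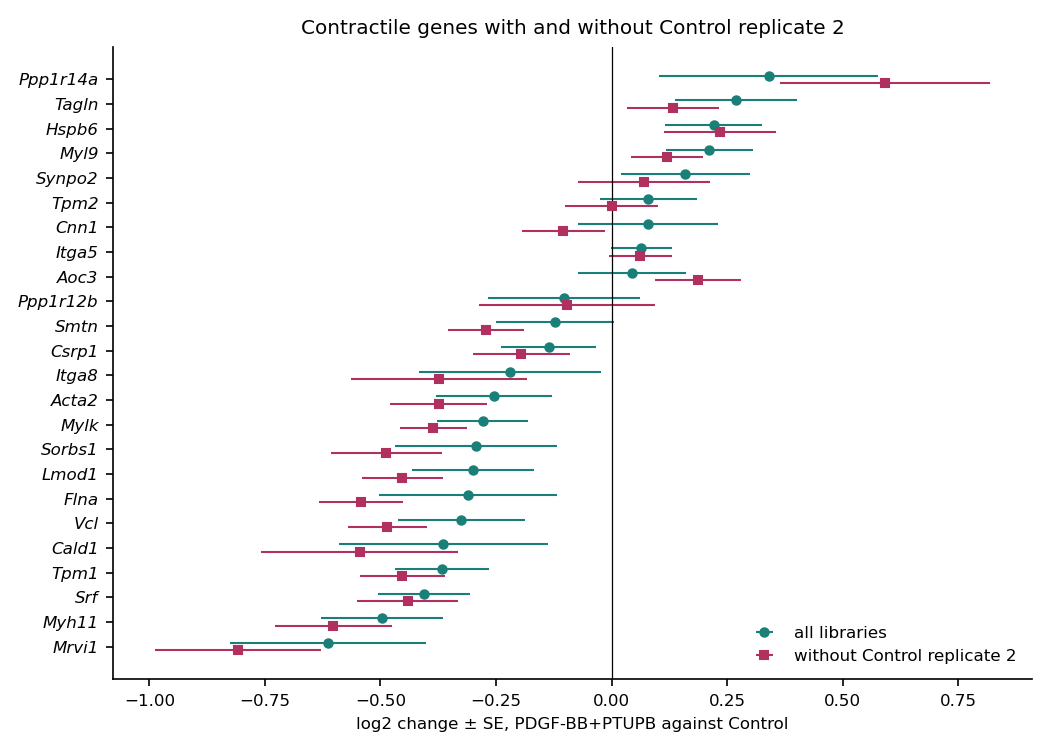
Log2 change between PDGF-BB+PTUPB and Control with its standard error (horizontal axis) for the 24 tested contractile genes, with all libraries (circles) and without Control replicate 2 (squares). Without that library most of the genes below 0 move further left, from -0.31 to -0.54 in Flna and from -0.50 to -0.60 in Myh11.

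The 35 genes that stayed lower than Control included signalling, matrix and complement genes, and 3 of them (8.57%) carried a cell division or DNA term in the deposited annotation, against 141 of the 212 rises (66.5%) and 18.3% of all tested genes. Id2, a repressor of differentiation factors that is a target of BMP signalling, measured 12.7, 20.4 and 11.2 FPKM in Control and 7.47, 6.17 and 5.41 with PDGF-BB+PTUPB (log2 change -1.24 ± 0.23, adjusted p = 0.0206). Its groups did not overlap, and Control replicate 2 held the highest value. With PDGF-BB alone it read 3.43, 2.33 and 2.68 FPKM. The other Id genes did not pass: the log2 change was -0.82 ± 0.19 for Id4 (adjusted p = 0.0537), -0.24 ± 0.10 for Id3 and 0.02 ± 0.12 for Id1. Id2 was the only call among 36 tested genes of TGF-beta and BMP signalling (0.313% of all tested genes were lower), whose median log2 change was -0.17. Leaving out Control replicate 2 and PDGF-BB replicate 3 gave 10 lower calls there, against 695 among all 11197 tested genes.

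Wnt antagonists of the Sfrp family were also lower, in 2 of the 3 tested members. They were the 2 lower calls among 18 tested genes of Wnt and Notch signalling, against 0.313% of all tested genes. There were 5 without Control replicate 2 and 7 when PDGF-BB replicate 3 was dropped too. Of all 11197 tested genes 147 and 695 were lower in those fits. Sfrp2 measured 91.3, 137 and 81.2 FPKM in Control and 59.6, 37.3 and 41.9 with PDGF-BB+PTUPB (log2 change -1.18 ± 0.22, adjusted p = 0.0218), and Sfrp4 7.38, 6.2 and 6.78 against 5.26, 4.26 and 4.99 (-0.52 ± 0.11, adjusted p = 0.0401). Scin, scinderin, an actin-severing protein, measured 70.5, 101 and 75.4 against 44.4, 44.0 and 36.2 (-1.01 ± 0.14, adjusted p = 0.00542). In all 3 the Control libraries lay above the others. Scin was far from its PDGF-BB level of 9.36, 7.22 and 8.27 FPKM, while Sfrp4 read 5.61, 5.40 and 5.04 FPKM there. The calls of Id2 and Sfrp2 were lost without PDGF-BB+PTUPB replicate 2 (adjusted p = 0.104 and 0.11) and without replicate 3 (adjusted p = 0.124 and 0.132), whereas Scin kept its call in all 22 alternative analyses. Sfrp4 lost its call without Control replicate 1 or 3, PDGF-BB replicate 1 or 2 or PDGF-BB+PTUPB replicate 2 or 3 (adjusted p up to 0.196).

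The 3 largest called falls were complement genes. C4b, complement component C4, measured 1.03, 1.70 and 1.41 FPKM in Control and 0.62, 0.31 and 0.42 with PDGF-BB+PTUPB (log2 change -1.65 ± 0.31, adjusted p = 0.0218), and LOC103689965, a C4-like gene, 3.58, 4.50 and 4.82 against 1.80, 1.38 and 1.72 (-1.42 ± 0.21, adjusted p = 0.00667). These 2 genes are near copies, so reads may be split between them. C4bpa, which binds C4, measured 8.21, 12.3 and 7.83 against 5.29, 3.54 and 2.93 (-1.29 ± 0.23, adjusted p = 0.0164). Of 15 complement genes tested, a family picked after the values were seen, these 3 were the only calls, against 0.313% of all tested genes lower. The abundant C3 measured 1733, 1646 and 1937 FPKM in Control and 1654, 1602 and 1419 with PDGF-BB+PTUPB (-0.21 ± 0.10, adjusted p = 0.398). C4b lost its call without Control replicate 3 or PDGF-BB+PTUPB replicate 2 or 3 (adjusted p up to 0.127), and C4bpa lost its call without PDGF-BB+PTUPB replicate 2 or 3 (adjusted p up to 0.0995). The C3 groups overlapped, while the groups of the 3 called genes were separate.

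A growth factor receptor and proteases were also among the falls. Pdgfrb, the receptor of PDGF-BB itself, measured 199, 208 and 196 FPKM in Control, 162, 159 and 159.8 with PDGF-BB+PTUPB and 106, 98.9 and 102 with PDGF-BB alone, in an order without overlap (log2 change from Control -0.35 ± 0.07, adjusted p = 0.0257). Its adjusted p was 0.263 with the length trend removed, and it lost its call without Control replicate 1 or 3, PDGF-BB replicate 1 or PDGF-BB+PTUPB replicate 1, 2 or 3 (adjusted p up to 0.366). Mmp14, a membrane metalloproteinase, measured 295, 433 and 314 against 226, 230.4 and 218 (-0.65 ± 0.12, adjusted p = 0.0246), with Control replicate 2 the highest library. Of 27 matrix proteases and inhibitors 3 were lower (Mmp14, Adam19, Adamts7) and 2 higher (Timp1, Serpine2), against 0.313% and 1.89% of all tested genes. The counts were 9 and 4 with both unusual libraries left out (Control replicate 2 and PDGF-BB replicate 3). In that fit 695 of all 11197 tested genes were lower and 650 higher. Cx3cl1, the chemokine fractalkine, measured 9.62, 19.6 and 14.1 against 7.93, 7.11 and 6.57 (-1.03 ± 0.22, adjusted p = 0.0418) and was called in 10 of 22 alternatives. Epas1, a hypoxia-inducible factor, was lower by a log2 change of -0.54 ± 0.11 (adjusted p = 0.0384) and was called in 11 of 22. Mmp14 lost its call without PDGF-BB replicate 1 or PDGF-BB+PTUPB replicate 1, 2 or 3 (adjusted p up to 0.13). Cx3cl1 lost its call without Control replicate 2 or 3, PDGF-BB replicate 1 or 2 or PDGF-BB+PTUPB replicate 1, 2 or 3 (adjusted p up to 0.207), and Epas1 lost its call without Control replicate 1, 2 or 3, PDGF-BB replicate 1 or 2 or PDGF-BB+PTUPB replicate 2 or 3 (adjusted p up to 0.207). Mmp14, Cx3cl1 and Epas1 also lost their calls with the 6 libraries alone. Epas1 lost its call with the length trend removed as well.

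Other growth factor and developmental genes fell by less than 2-fold. Fgfr2, an FGF receptor, measured 2.53, 1.91 and 2.20 FPKM in Control and 1.32, 1.5 and 1.16 with PDGF-BB+PTUPB (-0.76 ± 0.16, adjusted p = 0.0439), and Kcnd3, a potassium channel subunit, 4.38, 3.52 and 3.73 against 2.81, 2.41 and 2.24 (-0.67 ± 0.13, adjusted p = 0.03). Atoh8, a transcription factor of the atonal family, measured 12.1, 12.5 and 11.7 against 8.28, 7.19 and 7.16 (-0.71 ± 0.12, adjusted p = 0.0125). Slc39a8, a zinc importer, changed by -0.71 ± 0.12 and Glis3, a zinc finger factor, by -0.69 ± 0.15. The groups of all 5 genes were separate. Atoh8 and Slc39a8 lost their calls without PDGF-BB+PTUPB replicate 2 or 3 (adjusted p up to 0.0848 and 0.0799), and Fgfr2, Kcnd3 and Glis3 were called in 8 of 21, 14 of 21 and 9 of 22 alternatives. Fgfr2 lost its call without Control replicate 1 or 3, PDGF-BB replicate 1 or 2 or PDGF-BB+PTUPB replicate 1, 2 or 3 (adjusted p up to 0.201), Kcnd3 lost its call without Control replicate 1 or 3, PDGF-BB replicate 1 or PDGF-BB+PTUPB replicate 2 or 3 (adjusted p up to 0.172) and Glis3 lost its call without Control replicate 1, 2 or 3, PDGF-BB replicate 1 or 2 or PDGF-BB+PTUPB replicate 1, 2 or 3 (adjusted p up to 0.207). With the 6 libraries alone Fgfr2 and Glis3 also lost their calls, and Fgfr2 did so with the length trend removed.

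Chi3l1, a chitinase-like secreted glycoprotein, measured 7.75, 11.6 and 9.73 FPKM in Control and 5.42, 4.18 and 3.23 with PDGF-BB+PTUPB (log2 change -1.20 ± 0.24, adjusted p = 0.0294), and it lost its call without Control replicate 2 or 3 or PDGF-BB+PTUPB replicate 2 or 3 (adjusted p up to 0.147). Fhl1, a LIM domain protein of muscle cells, was the most abundant fall, with 395, 379.7 and 339 in Control and 307, 245 and 264 with PDGF-BB+PTUPB (-0.47 ± 0.10, adjusted p = 0.0384), and it lost its call without Control replicate 1, 2 or 3, PDGF-BB replicate 1 or 2 or PDGF-BB+PTUPB replicate 2 or 3 (adjusted p up to 0.198). Slit2, a secreted guidance protein, measured 25.1, 25.9 and 23.7 against 19.4, 18.8 and 17.2 (-0.46 ± 0.09, adjusted p = 0.0375); it was picked after its values were seen, it lost its call without Control replicate 1, 2 or 3, PDGF-BB replicate 2 or PDGF-BB+PTUPB replicate 1, 2 or 3 (adjusted p up to 0.207). The groups were separate in all 3 genes, and in Slit2 the PDGF-BB libraries lay lower still, at 14.9, 14.4 and 11.7 FPKM. Fhl1 also lost its call with the 6 libraries alone, and Slit2 with the length trend removed. Irs2, an adaptor of the insulin receptor, was lower by a log2 change of -0.35 ± 0.08 (adjusted p = 0.0438) and Hyou1, a chaperone of the endoplasmic reticulum, by -0.53 ± 0.09 (adjusted p = 0.0125). Hyou1 was the only call among 23 such chaperones, against 0.313% of all tested genes lower. With both unusual libraries left out 5 of the 23 were lower, against 695 of all 11197 tested genes. Irs2 lost its call without Control replicate 1 or 3, PDGF-BB replicate 1 or 2 or PDGF-BB+PTUPB replicate 1, 2 or 3 (adjusted p up to 0.354), and Hyou1 lost its call without Control replicate 3 or PDGF-BB+PTUPB replicate 2 or 3 (adjusted p up to 0.0755).

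Interferon response and cholesterol synthesis genes had no call against Control, where 2.21% of all tested genes were called, so that a count of 0 is near the background; the levels and intervals are given instead. Among 32 interferon response genes none was called against Control and the median log2 change was 0.01, while 20 were higher with PDGF-BB alone (median 0.66), against 17.3% of all tested genes. Irf7, a regulator of that response, measured 4.41, 4.35 and 4.59 FPKM in Control and 4.43, 4.21 and 4.76 with PDGF-BB+PTUPB (95% interval of the log2 change -0.36 to 0.32), with the groups overlapping, against 12.7, 13.4 and 18.3 with PDGF-BB. Among 25 genes of cholesterol synthesis none was called and the median was -0.15, with 16 higher with PDGF-BB alone (median 0.53), again against 17.3%. Msmo1, a sterol methyl oxidase, measured 74.5, 86.5 and 57.6 in Control and 69.2, 64.6 and 84.2 (95% interval -0.35 to 0.29), again overlapping, against 144, 152 and 171 with PDGF-BB. The intervals of 18 of the 32 interferon genes and 17 of the 25 cholesterol genes lay within 1.5-fold of Control, against 70.1% of all tested genes. With Control replicate 2 and PDGF-BB replicate 3 left out, 3 interferon genes and 1 cholesterol gene were called higher and 1 interferon gene lower. In that fit 650 of all 11197 tested genes were higher and 695 lower.

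**Figure D5:**
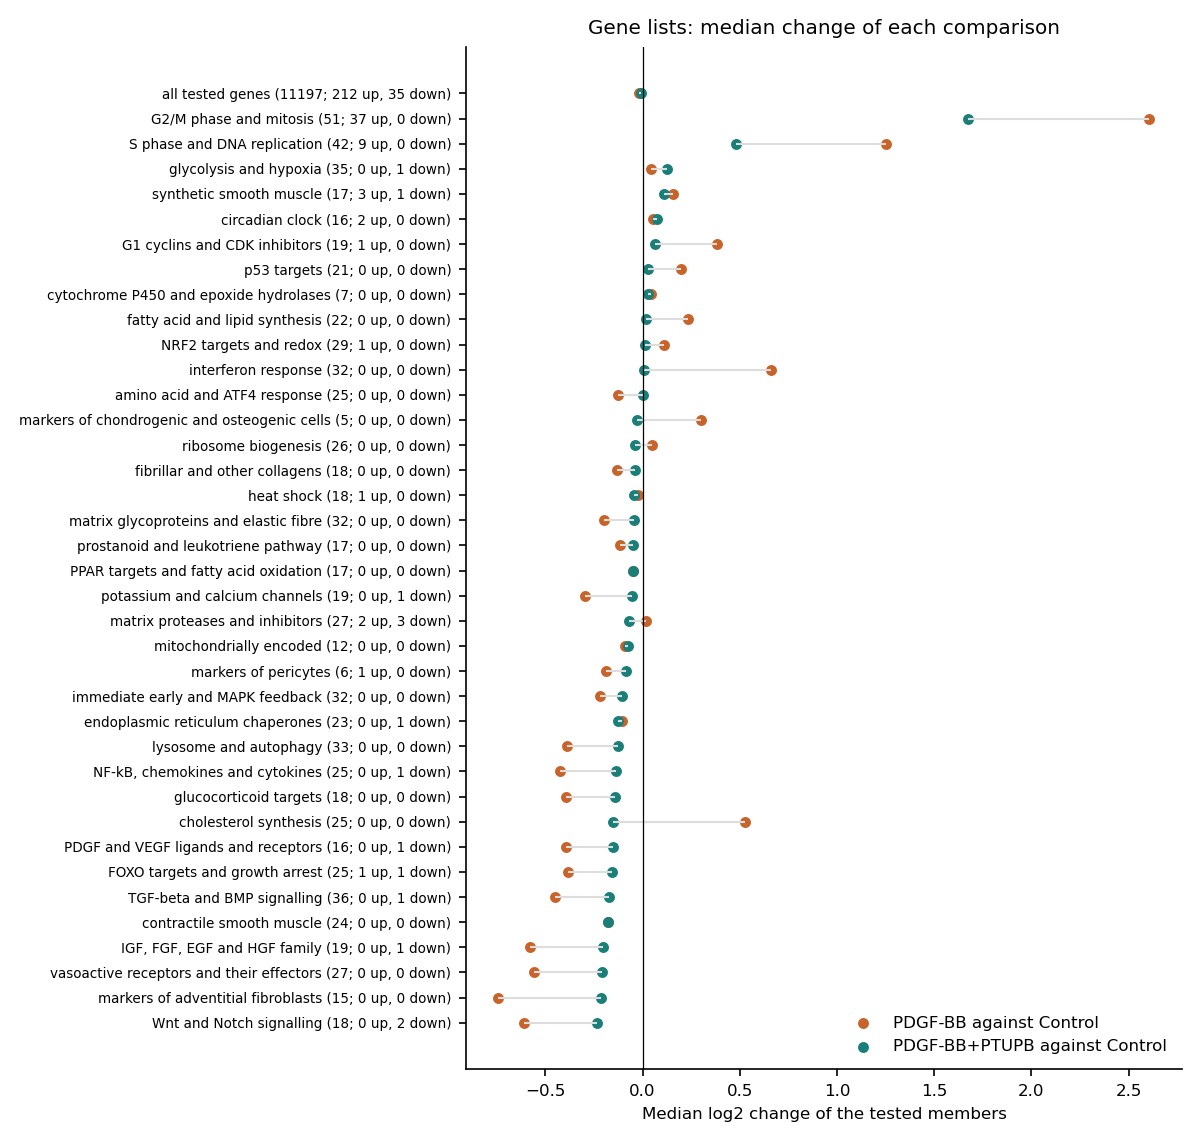
Median log2 change of the tested members of each gene list (horizontal axis) for PDGF-BB+PTUPB against Control (green) and PDGF-BB against Control (orange), which share the Control libraries; labels give the number tested and the calls of the first comparison. The G2/M list stands at 1.68 and the S phase list at 0.48, and the green points of the other lists lie between -0.23 and 0.13.

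Lysosome and autophagy genes, glucocorticoid targets and vasoactive receptors also had no called member of 33, 18 and 27 tested, with medians of -0.13, -0.14 and -0.21, and at a background of 2.21% such counts are not a result about these lists. With PDGF-BB alone 21, 9 and 15 of them were lower, against 15.8% of all tested genes. With both unusual libraries left out there were 6 lower vasoactive calls, and 1 lower and 1 higher call in each of the other 2 lists. Of all 11197 tested genes 695 were lower and 650 higher in that reduced set. The most abundant genes held by their interval within 1.5-fold of Control included Bgn, a matrix proteoglycan (4012, 3638 and 3879.8 FPKM in Control and 4199.7, 4334 and 4322 with PDGF-BB+PTUPB), and Eef1a1, a translation elongation factor, with a 95% interval of -0.20 to 0.20. Sparc, a collagen-binding protein, had an interval of -0.03 to 0.33. Also without a call were 32 matrix glycoproteins (median -0.04), 26 genes of ribosome biogenesis (-0.04), 21 p53 targets (0.03), 32 immediate early and MAPK feedback genes (-0.11), 25 genes of the amino acid response (0.00) and 12 mitochondrially encoded genes (-0.07), again near the background of 2.21%. In the same reduced set the matrix glycoproteins had 5 lower and 2 higher calls, and the immediate early list and ribosome biogenesis 3 lower calls each. Ribosome biogenesis and the p53 targets had 1 higher call each there. Dusp1, a phosphatase that ends MAPK signalling, measured 99.8, 98.3 and 102 FPKM in Control and 102, 68.7 and 72.1 with PDGF-BB+PTUPB (-0.33 ± 0.14, 95% interval -0.64 to -0.03), and Npm1, a nucleolar protein, had an interval of -0.03 to 0.43. Ndufa4l2, one of the pericyte markers, was the only marker of another cell type that was called (17.3, 18.2 and 17.8 against 24.8, 31.7 and 31.3 FPKM, 0.69 ± 0.14, adjusted p = 0.0289). It lost its call without Control replicate 1, 2 or 3, PDGF-BB replicate 1 or PDGF-BB+PTUPB replicate 2 or 3 (adjusted p up to 0.15). Of the 11 pericyte markers 2 (Rgs5 and Higd1b) were at 0 in all libraries and 6 were tested, with a summed FPKM of 152 to 189 in Control and 165 to 174 with PDGF-BB+PTUPB.

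Transcripts of both enzymes blocked by PTUPB were not called. Ptgs2, which encodes cyclooxygenase-2, measured 3.97, 8.74 and 4.88 FPKM in Control and 3.98, 3.74 and 3.60 with PDGF-BB+PTUPB (log2 change -0.66 ± 0.27, 95% interval -1.26 to -0.06, adjusted p = 0.324). Ephx2, which encodes soluble epoxide hydrolase, measured 2.68, 4.17 and 3.41 against 3.71, 4.36 and 3.72 (0.17 ± 0.17, 95% interval -0.19 to 0.54, adjusted p = 0.717). The groups overlapped in both genes, and Control replicate 2 gave the highest Control value of each. An inhibitor acts on the enzymes, so these transcript levels do not check the labels. None of 17 prostanoid and leukotriene genes and none of 7 cytochrome P450 and epoxide hydrolase genes was called, against 2.21% of all tested genes, with median log2 changes of -0.05 and 0.03. When both unusual libraries were left out, 2 prostanoid genes were higher and 1 lower, against 650 and 695 of all 11197 tested genes. The constitutive Ptgs1 measured 153, 142 and 164 in Control and 184, 159 and 156 with PDGF-BB+PTUPB.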

How the data were processed

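The authors deposited 1 table of 9 poly(A) RNA-seq libraries with estimated counts and FPKM for 32623 genes, and per the submitters' processing notes reads were handled with cutadapt 1.9.1, HISAT2 2.0.1 and HTSeq 0.6.1. The deposited counts were not whole for 978 genes and were rounded. The deposited FPKM followed from counts, exonic lengths and library totals within 0.006 for 100% of values. Whether counting used strand is not given in the sources used here, so overlapping and antisense genes cannot be told apart. The mm10 build named in the notes does not match the rat gene identifiers, and GC content was not analysed here.

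The 11197 genes that reached a deposited FPKM of 1 in 3 or more of the 9 libraries were tested with edgeR 4.0.16 (R 4.3.3): TMM scaling, 1 quasi-likelihood fit of all 9 libraries with 3 groups and 6 residual degrees of freedom, a two-sided test of PDGF-BB+PTUPB against Control, and Benjamini-Hochberg adjustment over all tested genes, called under 0.05. Intervals are 95% intervals from that fit, and log2 changes carry standard errors. The script was tested on simulated data. Alternatives used DESeq2 1.42.0, limma 3.58.1 on log2(FPKM + 1) and log2(FPKM + 0.1), other scalings and filters, the 6 libraries alone, each library left out, both unusual libraries left out, a replicate block and a length offset. The main fit did not pair samples by replicate number.

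Genes were named by a rule: the 15 largest rises and 15 largest falls with a mean FPKM of at least 2 and groups that did not overlap, the 10 most abundant called genes, up to 4 called members of each list (2 most abundant where none was called), the 10 most abundant genes within 1.5-fold, and a short fixed set. Other genes, gene families and annotation keywords were picked after values were seen. The members, lists and rule were chosen with earlier results of these data known. Listed genes whose symbol did not match the table were not analysed here. Promoters are RefSeq sequences of build GRCr8, matched by symbol. A result that needs an item withheld from this text is not reported here.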

Additional observations from a re-analysis of the deposited data

How the results depend on the processing

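Across 22 alternatives the 212 higher calls ranged from 90 to 271 when 1 library was left out and the 35 lower calls from 3 to 147. The 2-fold counts ranged from 73 to 145 (128 with all libraries) and from 1 to 13 (9 with all libraries). DESeq2 gave 330 higher, 114 lower and 14 lower by at least 2-fold. limma on log2(FPKM + 1) gave 22 lower calls, 83 at least 2-fold higher and 5 at least 2-fold lower, and on log2(FPKM + 0.1) 22 lower. Without Control replicate 2 and PDGF-BB replicate 3 there were 650 higher, 695 lower and 24 at least 2-fold lower. The cause of these shifts was not tested. The higher share of calls was 85.8% with all libraries, 74.3% with DESeq2, 56.8% without Control replicate 2, 48.3% without both libraries and 96.8% without PDGF-BB+PTUPB replicate 2 or 3. The count within 1.5-fold ranged from 6926 to 8325 without 1 library, around 7845. No called gene changed sign in any alternative. This adds little, because the groups were already separate in all 247 called genes and leaving libraries out could hardly reverse a sign. Deviations from the group means of same-numbered Control and PDGF-BB+PTUPB libraries had correlations of -0.0595, -0.0916 and -0.0101. Taken from means of only 3 libraries, these cannot show whether the samples were paired. With the replicate block 145 genes were higher and 23 lower, with the block and length offset 173 and 30, and with the length offset alone 223 and 42. These sets were not the same genes as in the main fit. Of its 35 lower calls 20 were kept with the block, 19 with block and length offset and 24 with the length offset alone. Of its 212 higher calls 144, 157 and 198 were kept. The 6 libraries alone kept 21 of the 35 lower and 162 of the 212 higher calls.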

Other observations

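Some called genes had PDGF-BB+PTUPB levels outside the range between Control and PDGF-BB; they were picked after their values were seen. Cd180, a Toll-like receptor homologue, measured 32.9, 28.4 and 31.5 FPKM in Control, 42.5, 46.7 and 48.0 with PDGF-BB+PTUPB and 26.6, 22.6 and 21.3 with PDGF-BB alone. It was higher than Control (log2 change 0.54 ± 0.10, edgeR adjusted p = 0.0273) and higher than PDGF-BB (1.00 ± 0.11, adjusted p = 0.000576), with no overlap of the groups. Il1r2, the decoy receptor of interleukin 1, measured 12.2, 13.1 and 14.1 in Control, 20.9, 22.8 and 20.3 with PDGF-BB+PTUPB and 16.8, 13.9 and 15.9 with PDGF-BB, and was called against both (0.67 ± 0.10, adjusted p = 0.00755; 0.50 ± 0.10, adjusted p = 0.00868). Angptl7, an angiopoietin-like secreted protein, measured 1.51, 0.73 and 1.28 in Control, 2.23, 6.03 and 5.55 with PDGF-BB+PTUPB and 1.45, 1.9 and 1.47 with PDGF-BB (1.96 ± 0.39 against Control, adjusted p = 0.0292). Its replicate 1 with PDGF-BB+PTUPB lay well below the other treated libraries. Gsta1, a glutathione transferase with close relatives whose reads may be shared, changed by 0.58 ± 0.13 against Control (adjusted p = 0.0489). Il1r2 lost its call without PDGF-BB+PTUPB replicate 2 (adjusted p up to 0.0567). Cd180 lost its call without Control replicate 2 or 3, PDGF-BB replicate 2 or PDGF-BB+PTUPB replicate 2 or 3 (adjusted p up to 0.154), Angptl7 lost its call without Control replicate 2 or 3, PDGF-BB replicate 1 or 2 or PDGF-BB+PTUPB replicate 2 or 3 (adjusted p up to 0.146) and Gsta1 lost its call without Control replicate 1 or 3, PDGF-BB replicate 1 or 2 or PDGF-BB+PTUPB replicate 1, 2 or 3 (adjusted p up to 0.238). Zmynd19 measured 16.7, 16.3 and 19.8 FPKM in Control, 9.62, 8.49 and 7.59 with PDGF-BB+PTUPB and 16.0, 10.3 and 11.2 with PDGF-BB (-1.07 ± 0.18 from Control, adjusted p = 0.0124). Zmynd19 lost its call without Control replicate 3 or PDGF-BB+PTUPB replicate 2 or 3 (adjusted p up to 0.0799), and the difference from PDGF-BB did not pass (-0.50 ± 0.18, adjusted p = 0.0791).

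Dbp and Prg4 were called against Control and not against PDGF-BB, which does not show that the levels were equal. Dbp, a transcription factor of the circadian clock's output, measured 11.6, 12.7 and 11.6 in Control, 20.9, 24.3 and 25.4 with PDGF-BB+PTUPB and 24.7, 24.4 and 21.9 with PDGF-BB (0.95 ± 0.09 from Control, adjusted p = 0.00103; 0.04 ± 0.09 from PDGF-BB). Prg4, lubricin, measured 7.75, 10.2 and 7.73 in Control, 14.6, 16.5 and 17.8 with PDGF-BB+PTUPB and 16.1, 12.7 and 15.4 with PDGF-BB (0.90 ± 0.13 from Control, adjusted p = 0.00715; 0.18 ± 0.13 from PDGF-BB). Both were called against Control in all 22 alternatives. Per2 was the other clock gene called of 16 tested, against 1.89% of all tested genes higher (0.41 ± 0.09, adjusted p = 0.0488). Per2 was also called against PDGF-BB (0.37 ± 0.09, adjusted p = 0.0198), and PDGF-BB differed from Control by 0.04 ± 0.09 (adjusted p = 0.761). The call against Control was made in 7 of 21 alternatives, and Per2 lost its call without Control replicate 1, 2 or 3, PDGF-BB replicate 1 or 2 or PDGF-BB+PTUPB replicate 1, 2 or 3 (adjusted p up to 0.238). Hsp90aa1, a chaperone with near-identical copies in the genome, measured 4.23, 3.88 and 3.75 in Control and 9.36, 20.6 and 20.6 with PDGF-BB+PTUPB (2.06 ± 0.29), a value to be read with that limit.

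A further 69 genes had a fitted difference of at least 2-fold at an FPKM of 2 or more in the higher group without being called. Of these, 44 were higher and 25 lower with PDGF-BB+PTUPB. The groups did not overlap in 37 of the 69, against 21.5% of all tested genes, and choosing genes by a 2-fold difference favours separate groups. In KEGG pathways of the deposited annotation the called share was 17.4% of 46 genes of pyrimidine metabolism, 15.4% of 39 of DNA replication and 14% of 121 of the cell cycle, all of them higher, and 9.38% of 32 genes of complement and coagulation, all lower, against 2.21% of all tested genes. The complement and coagulation share rests on 3 calls, as many as the complement family above, and is not separate evidence.

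The labels leave the PDGF-BB dose at 2 values and do not say whether libraries of a group are separate cultures. The annotation pairs rat gene identifiers with a stated mouse genome build, so no position from the deposited table is given. With 3 libraries a group, 1532 genes had an unadjusted p under 0.05 and 247 passed adjustment. A gene that was not called is not shown to stand at the Control level unless its interval says so. RNA was measured, and neither protein, cell number nor cell cycle stage was.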
